A study of Ctenopharyngodon idella with 6 samples.

Results

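miR-181 is a family of vertebrate miRNAs whose hairpin copies are named by letter (a, b, c and so on) and whose 2 strands, or arms, are named 5p and 3p. Entries of the table of known miRNAs were taken as members when their name carried exactly the family number miR-181, whatever the species prefix, which gave 75 entries with 32 species prefixes among 2925 entries with 157 prefixes. The prefix is that of the species in which miRBase lists the sequence (dre for zebrafish, ccr for common carp, hsa for human), and all values are from grass carp (Ctenopharyngodon idella). Large fish and small fish were taken by body weight from 1 densely stocked pond at 10 months of age, and small RNA was sequenced from exosomes, the small vesicles that cells release, isolated from their plasma. The large fish group held 3 libraries (L1 to L3), each from the pooled plasma of 2 fish, and the small fish group held 3 libraries (S1 to S3), each from the pooled plasma of 5 fish. The labels name no treatment or genotype that separated the groups, and the authors did not determine genetic sex. Because every large fish pool held fewer fish than every small fish pool, pool size and fish size cannot be told apart. Values are counts per 1000000 miRNA counts of the library (CPM). For each miRNA name, the authors counted reads once per unique molecular identifier. Names with identical counts each entered the library total, so the total is a sum over names and not a number of separate molecules. Library totals ranged between 5272418 and 7660938 counts in large fish and between 6684107 and 11524535 counts in small fish, so that an entry at 0 could stand at up to 0.260 to 0.569 CPM (3 counts, counting error only).

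A miRNA is cut from a hairpin precursor, after which 1 arm is usually loaded into an Argonaute protein and guides it to messenger RNAs, while the other arm is mostly degraded. Bases 2 to 8, the seed, set most of the pairing with targets, so that entries with the same seed are taken to share many targets. In vertebrates miR-181a and miR-181b are encoded side by side in shared clusters, and miR-181c and miR-181d form a further cluster in mammals. In mice miR-181a is known for its part in lymphocyte development and in setting the sensitivity of T cell receptor signalling, and in mammals miR-181b is known for damping inflammatory signalling in endothelium.

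The sequences below are those of the 5p entries on which the results turn, printed 5′ to 3′ as the deposited table gives them, in DNA letters, with the seed in capitals. They are the most abundant entry of each letter, the zebrafish and common carp entries, and the entries whose values went against their letter.
pbv-miR-181a-5p: aACATTCAacgctgtcggtgagttt
ccr-miR-181a: aACATTCAacgctgtcggtga
abu-miR-181a: cACATTCAtcgctgtcggtggg
gga-miR-181b-5p: aACATTCAttgctgtcggtggg
hsa-miR-181b-5p: aACATTCAttgctgtcggtgggt
abu-miR-181b: aACATTCAttgctgtcgctgggt
dre-miR-181c-5p: cACATTCAttgctgtcggtggg
oan-miR-181c-5p: aACATTCAttactgtcggtgggt
hsa-miR-181d-5p: aACATTCAttgttgtcggtgggt
dre-miR-181d-5p: tACATTCAttgatgtcgttgggtt
efu-miR-181e: aACATTCAttgctgtcggtgggttt

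The seed ACATTCA was shared by 25 of 26 entries of the 5p arm, across the letters a to e, and the remaining entry, pbv-miR-181b-5p, starts 1 base later on the same sequence. No entry of another family in the table carried the seed of any miR-181 entry (0 entries). The letters differ outside the seed. Counted from 1 at the 5′ end, pbv-miR-181a-5p differs from gga-miR-181b-5p at 3 positions (A9T, C10T and A21G), and gga-miR-181b-5p differs from dre-miR-181c-5p at 1 (A1C). The human miR-181b-5p and miR-181d-5p sequences differ by C12T, whereas dre-miR-181d-5p differs from human miR-181b-5p by A1T, C12A and G18T.

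The 3p arm was represented by more entries (48) with more seeds. The sequences below are the most abundant forms of miR-181a-3p, the zebrafish entries and 2 forms of miR-181b-3p, again with the seed in capitals.
cpi-miR-181a-3p: aCCATCGAccgttgattgtac
hsa-miR-181a-3p: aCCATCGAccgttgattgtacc
dre-miR-181a-2-3p: aCCATCGAccgttgactgtacc
ssa-miR-181a-4-3p: aCCATCGAccgttgagtgtacc
ssa-miR-181a-5-3p: aCCATCGAccgttgactgtgcc
mmu-miR-181a-2-3p: aCCACCGAccgttgactgtacc
xtr-miR-181a-2-3p: aCCATCGGccgttgactgtacc
xtr-miR-181a-1-3p: aCCATCGAtcgttgactgtaca
dre-miR-181a-3-3p: aCCATCGAgtgttgagtgtacc
dre-miR-181a-4-3p: aCCATCGAccgttggctgtgcc
dre-miR-181c-3p: cTCGCCGGacaatgaatgagaa
hsa-miR-181b-2-3p: cTCACTGAtcaatgaatgca
rno-miR-181b-2-3p: cTCACTGGtcaatgaatgcaaa

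The seed CCATCGA was the most frequent on this arm, in 13 entries of miR-181a and miR-181c, followed by TCACTGA in 9 entries of miR-181b and miR-181c. Most of the abundant forms of miR-181a-3p differ outside the seed: hsa-miR-181a-3p and dre-miR-181a-2-3p differ by T16C, and dre-miR-181a-2-3p and ssa-miR-181a-5-3p by A20G. In 2 forms the difference lies in the seed, T5C between dre-miR-181a-2-3p and mmu-miR-181a-2-3p and A8G between dre-miR-181a-2-3p and xtr-miR-181a-2-3p.

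Many of these names did not stand for separate measurements. The 75 entries held 41 distinct sets of values, 54 names shared their values in all 6 libraries with at least 1 other name, and in 9 of the 20 shared sets the sequences differed by more than their length. Values did not always follow the letter. The sequence oan-miR-181c-5p, which differs from hsa-miR-181d-5p at positions 11 and 12, had the same counts as it in every library (57, 80 and 68 in large fish, 101, 104 and 104 in small fish). The cichlid entry abu-miR-181a is 1 substitution (T10C) from dre-miR-181c-5p and had the values of gmo-miR-181c-5p, not those of the other miR-181a-5p entries. Another cichlid entry, abu-miR-181b, is 1 substitution (G18C) from hsa-miR-181b-5p. Its counts (57, 82 and 69 in large fish, 99, 104 and 103 in small fish) were near those of hsa-miR-181d-5p. The single entry with the letter e, efu-miR-181e, had the values of hsa-miR-181b-5p and mmu-miR-181b-5p. Of the 10 names with no arm, 8 were placed on the 5p arm by sequence, efu-miR-181a was placed on the 3p arm and had the values of cpi-miR-181a-3p, and efu-miR-181b could not be placed and had the values of ola-miR-181b-3p. Entries within a letter are therefore not independent of each other.

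Both arms of miR-181a were the most abundant members. The entry pbv-miR-181a-5p averaged 120.1 ± 14.5 CPM in large fish, against 171.5 ± 33.7 CPM in small fish (mean ± SD over 3 pools each), and cpi-miR-181a-3p averaged 151.0 ± 16.6 CPM in large fish, against 139.4 ± 21.8 CPM in small fish. They were followed by miR-181b-5p (gga-miR-181b-5p, 46.0 ± 11.5 CPM in large and 54.6 ± 13.8 CPM in small fish) and miR-181c-5p (dre-miR-181c-5p, 45.8 ± 11.5 CPM in large and 54.3 ± 13.6 CPM in small fish), whose values were almost the same and not independent. Lower still were miR-181d-5p (hsa-miR-181d-5p, 10.6 ± 0.215 CPM in large and 12.7 ± 3.24 CPM in small fish), miR-181c-3p (dre-miR-181c-3p, 8.04 ± 1.36 CPM in large and 7.42 ± 5.30 CPM in small fish) and miR-181b-3p (ami-miR-181b-2-3p, with 1.38 to 2.74 CPM in large fish, against 2.54 to 3.63 CPM in small fish). In this order, miR-181a-5p and miR-181a-3p overlapped, miR-181b-5p and miR-181c-5p overlapped, miR-181d-5p and miR-181c-3p overlapped, and miR-181c-3p and miR-181b-3p overlapped, whereas no library had as much miR-181b-5p as miR-181a-5p. Set beside the other families by their most abundant entry, miR-181 stood at place 58 of 438. An overall mean of at least 10 CPM was reached by 37 of the 75 entries (22 of the 41 sets of values), and 14 entries were at 0 in at least 1 library. In bulk plasma exosomes, fewer vesicles from a cell type and less miRNA per vesicle cannot be told apart.

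**Figure D1:**
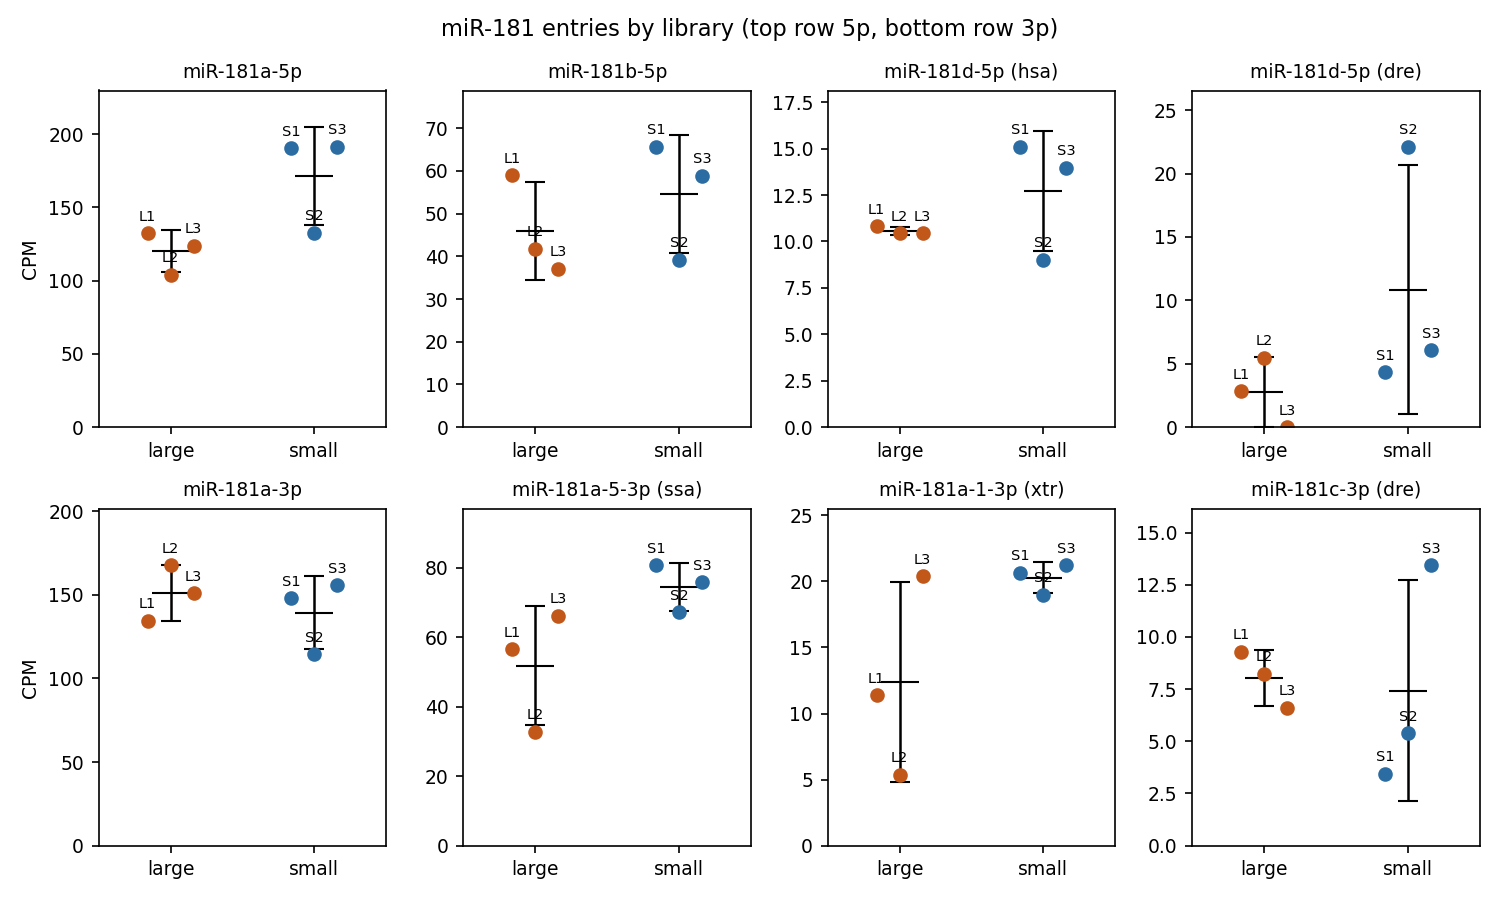
Level in CPM (linear axes that start at 0) of 8 miR-181 entries, 4 of the 5p arm above and 4 of the 3p arm below, with large fish left of small fish. The panels with no species in brackets show pbv-miR-181a-5p, gga-miR-181b-5p and cpi-miR-181a-3p. Points are single libraries with their names, and bars are the mean and SD of 3 pools. The groups do not overlap for miR-181a-5p, where the 3 large fish libraries lie between 104.2 and 132.4 CPM and the 3 small fish libraries between 132.7 and 191.5 CPM, nor for ssa-miR-181a-5-3p, and they overlap in the other panels.

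No miR-181 entry passed the test between large and small fish. The test was limma on log2(CPM + 1), fitted on the 1807 entries of the whole table that reached 1 CPM in 3 or more libraries, with Benjamini-Hochberg adjustment over all of them, and passing took an adjusted p not above 0.05 together with a fold not below 1.5. By this rule 17% of all entries passed, 2.82% with large fish higher and 14.2% with large fish lower, against 0 of the 60 miR-181 entries tested (32 sets of values). At an unadjusted p under 0.05 stood 1 of the 60 (1.67%), against 32.5% of all entries tested. This count was 12 after quantile normalization, 8 without L3 and 7 without S2, and 0 to 4 under the other alternatives. Those included testing all entries, with 75 of miR-181, and testing only entries of 10 CPM and above, with 37. The matching share of all entries was not computed for the alternatives. On the recovered counts, edgeR's quasi-likelihood test, edgeR's exact test and DESeq2 passed 0 of the 60, against 46, 352 and 370 of 1807 entries. Of the 60, 0, 1 and 0 had an unadjusted p below 0.05 in these tests. The median log2 fold change, large minus small fish, was -0.23 over the miR-181 entries and -0.26 over all entries tested. With a library left out, the miR-181 median was -0.09 without S1, -0.10 without L3, -0.39 without L1 and -0.40 without S2, on either side of that of all entries. The 60 entries ranged from -1.71 to 0.55, with 42 below 0 (70%, against 68.0% of all entries tested) and 18 above 0. The groups did not overlap in 10 of the 60 entries (7 sets of values), all lower in large fish, where 29.6% of all entries did not overlap in that direction. These were 5 entries of miR-181a-5p (pbv-miR-181a-5p, bta-miR-181a, mmu-miR-181a-5p, ccr-miR-181a and cfa-miR-181a), 2 of miR-181a-3p (ssa-miR-181a-5-3p and mdo-miR-181a-2-3p) and 3 of miR-181b-3p (rno-miR-181b-2-3p, ami-miR-181b-3-3p and dno-miR-181b-2-3p). In the other direction the count was 0 of 60, where 10.5% of all entries did not overlap with large fish higher.

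The 2 arms of miR-181a differed in where their values lay. In pbv-miR-181a-5p the values were 132.4, 104.2 and 123.8 CPM in L1 to L3, against 190.5, 132.7 and 191.5 CPM in S1 to S3. The groups were apart only by the small gap between L1 and S2, and the common carp entry ccr-miR-181a had the same counts but for S2 and S3. The log2 fold change of pbv-miR-181a-5p was -0.50 (95% interval -1.05 to 0.05, standard error 0.23, adjusted p by limma 0.185), or -0.24 relative to the median entry, and after quantile normalization it was -0.01. In the shortest form, ola-miR-181a-5p, the groups overlapped, with 129.5, 100.6 and 121.8 CPM in large fish, against 186.6, 128.9 and 187.5 CPM in small fish.

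In cpi-miR-181a-3p the order was not the same. The values were 134.5, 167.7 and 150.8 CPM in L1 to L3, against 148.0, 114.5 and 155.6 CPM in S1 to S3, so that L2, the lowest library for the 5p arm, was the highest for the 3p arm. The log2 fold change was 0.12 (95% interval -0.39 to 0.63, standard error 0.22, adjusted p by limma 0.739), and without S2 it was -0.01. Other scalings moved this value up. TMM gave 0.37, and quantile normalization gave 0.69, where the adjusted p by limma (0.0547) stayed just above the threshold. The zebrafish entry dre-miR-181a-2-3p had 115.9, 149.1 and 134.0 CPM in large fish, against 125.1, 92.8 and 131.4 CPM in small fish, with a log2 fold change of 0.20 (limma adjusted p = 0.589), and 0.045 without S2 to 0.29 without L1. For this entry TMM gave 0.45, and quantile normalization gave 0.76 (limma adjusted p = 0.0547).

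The rarer forms of miR-181a-3p were spread differently among the large fish libraries. The salmon entry ssa-miR-181a-5-3p had 56.5, 32.8 and 66.1 CPM in large fish, against 80.8, 67.2 and 75.8 CPM in small fish, and the groups did not overlap. Its log2 fold change was -0.57 (95% interval -1.27 to 0.13, standard error 0.30, adjusted p by limma 0.224), and it was -0.28 without L2. The frog entry xtr-miR-181a-1-3p had 11.4, 5.35 and 20.4 CPM in large fish, against 20.6, 19.0 and 21.2 CPM in small fish, with a log2 fold change of -0.84 (adjusted p by limma 0.218, standard error 0.43). It was the only miR-181 entry to pass under any alternative, with -1.26 and an adjusted p of 0.0495 by limma without L3, and stood at -0.39 (adjusted p 0.439 by limma) without L2. Without L3, 1 of 60 miR-181 entries passed, against 365 of all 1807 entries, 309 of these lower in large fish. The mouse entry mmu-miR-181a-2-3p, with its change in the seed, had 35.5, 12.7 and 47.6 CPM in large fish, against 55.2, 42.1 and 48.9 CPM in small fish (log2 fold change -0.77, standard error 0.46, limma adjusted p = 0.294, and -0.23 without L2). The frog entry xtr-miR-181a-2-3p, with A8G in place of T5C, had the same counts in L1 to L3 and S3 (187, 97, 310 and 364). In S1 and S2 it had 371 and 488 counts, against 369 and 485. The counts therefore do not show which of these 2 seed changes the reads carried, or whether they carried either. In ssa-miR-181a-5-3p, xtr-miR-181a-1-3p and mmu-miR-181a-2-3p, L2 was the lowest of the 6 libraries, while L2 was the highest for the most abundant 3p form. Whether some reads were counted under several of these names was not tested. As a percentage of the cpi-miR-181a-3p value of the same library, ssa-miR-181a-5-3p stood at 42.0%, 19.5% and 43.8% in large fish and at 54.6%, 58.6% and 48.7% in small fish. This percentage was chosen after the values had been seen and was not tested.

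miR-181b-5p and the miR-181c-5p and miR-181e entries that resemble it overlapped between the groups. In gga-miR-181b-5p the values were 59.0, 41.8 and 37.1 CPM in large fish, against 65.7, 39.1 and 58.9 CPM in small fish, and S2 and S3 lay within the range of the large fish. The log2 fold change was -0.24 (95% interval -0.92 to 0.45, standard error 0.29, adjusted p by limma 0.619), with -0.46 without S2 and -0.09 without S1, and it was 0.01 after TMM scaling, 0.19 after quantile normalization and 0.05 with DESeq2. In dre-miR-181c-5p the counts differed from those of gga-miR-181b-5p by a few reads (58.8, 41.8 and 37.0 CPM in large fish, 65.2, 39.0 and 58.6 CPM in small fish), with a log2 fold change of -0.23 (limma adjusted p = 0.620) and 0.01 after TMM scaling. The entry abu-miR-181a, with the single substitution T10C, had 42.1, 31.1 and 26.1 CPM in large fish, against 47.1, 28.4 and 42.5 CPM in small fish.

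miR-181d-5p had 10.8, 10.4 and 10.4 CPM in large fish, against 15.1, 9.02 and 14.0 CPM in small fish under the name hsa-miR-181d-5p. The 3 large fish libraries lay close together and inside the range of the small fish libraries, with a log2 fold change of -0.22 (adjusted p by limma 0.611, standard error 0.26), -0.43 without S2, -0.08 without S1, and 0.02 after TMM scaling. The zebrafish entry dre-miR-181d-5p was rarer and far more uneven, with 2.84, 5.48 and 0 CPM in large fish (15, 42 and 0 counts) and 4.34, 22.1 and 6.05 CPM in small fish (29, 255 and 45 counts). It had the lowest log2 fold change of the family, -1.71, with a standard error of 0.80 and a limma adjusted p of 0.184. The value was -0.94 without L3, where the entry stood at 0, and -1.07 without S2, where it was highest.

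All 23 tested entries of the 5p arm (15 sets of values) had a log2 fold change below 0. Their median was -0.24, against -0.26 over all entries tested. Among 5p entries followed singly through the alternatives, the sign turned for gga-miR-181b-5p, dre-miR-181c-5p, efu-miR-181e and hsa-miR-181d-5p after TMM scaling, after quantile normalization and with DESeq2. By contrast, of the 36 tested entries of the 3p arm 19 were below 0 and 17 above 0 (median -0.09). Below 0 were 42 of the 60 entries in limma, but 21 after TMM scaling, 14 after quantile normalization, 24 with edgeR's quasi-likelihood test and 21 with DESeq2, and these scalings moved the median of all entries to -0.05, 0.09, -0.02 and 0.02. Read against the median of all entries, 21 of the 60 lay below it in limma, after TMM scaling, with edgeR's quasi-likelihood test and with DESeq2, and 23 after quantile normalization. With a library left out the count ranged from 15 (without L3 or without S3) to 37 (without S2), with 32 without L1, so it was a minority or a majority of the 60 depending on the library.

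**Figure D2:**
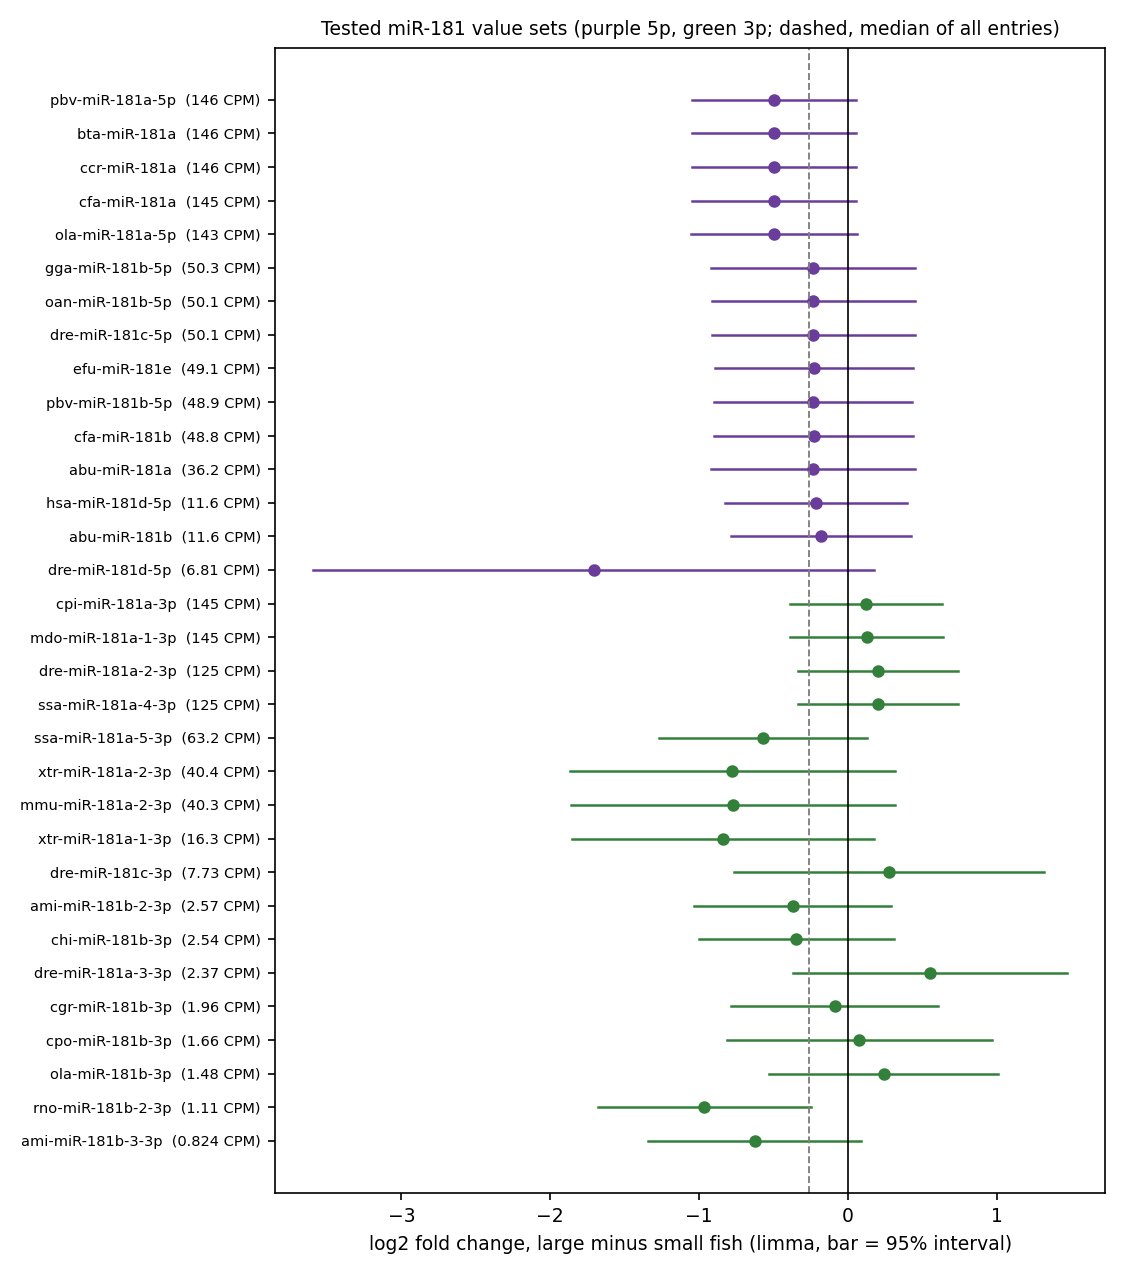
Log2 fold change, large minus small fish, of each of the 32 tested sets of miR-181 values (5p purple, 3p green, with the overall mean in CPM beside each name), with its 95% interval from limma on log2(CPM + 1). The solid line marks 0 and the dashed line the median of all 1807 entries tested (-0.26). The interval of 1 set, rno-miR-181b-2-3p, does not reach 0, and none passed after adjustment.

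The remaining 3p members were rare. The zebrafish entry dre-miR-181c-3p had 9.29, 8.22 and 6.60 CPM in large fish, against 3.44, 5.38 and 13.4 CPM in small fish, with a log2 fold change of 0.27 (limma adjusted p = 0.706) and -0.10 without S1 to 0.75 without S3. The zebrafish entry dre-miR-181a-3-3p had 3.98, 3.79 and 1.38 CPM in large fish, against 1.94, 0.868 and 2.28 CPM in small fish, the highest log2 fold change of the family (0.55, standard error 0.39, limma adjusted p = 0.374), with 0.31 without S2, 0.36 without L1 and 0.90 without L3. A further zebrafish copy, dre-miR-181a-4-3p, did not reach 1 CPM in 3 libraries and was not tested, with 0.569, 1.04 and 0.460 CPM in large fish, against 0.449, 2.69 and 0.941 CPM in small fish.

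The lowest p of the family belonged to a form counted in a few reads. The rat entry rno-miR-181b-2-3p had 4, 0 and 4 counts in large fish, against 11, 19 and 15 counts in small fish, or 0.759, 0 and 0.614 CPM against 1.65, 1.65 and 2.02 CPM. Its log2 fold change was -0.97 on the log2(CPM + 1) scale (standard error 0.30, 95% interval -1.68 to -0.25), with an unadjusted p of 0.0152 and an adjusted p of 0.0733 by limma. The more abundant form ami-miR-181b-2-3p overlapped between the groups, with 2.28, 2.74 and 1.38 CPM in large fish, against 2.54, 2.86 and 3.63 CPM in small fish (log2 fold change -0.37, limma adjusted p = 0.405, with -0.51 without L2, -0.19 without L3, and 0.02 after quantile normalization). The 18 entries of miR-181b-3p had overall means of 0.824 to 2.57 CPM.

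The other 14 of the 15 entries not tested had at most 10 counts in any library. The lamprey form of miR-181b-5p, pma-miR-181b-5p, had 0.759, 0.783 and 0.614 CPM in large fish, against 0.898, 0.347 and 0.941 CPM in small fish. The cobra entry oha-miR-181c-3p had 0.379, 0 and 0.307 CPM in large fish, against 1.05, 0.868 and 0.538 CPM in small fish, without overlap but at 0 to 10 counts. The human entry hsa-miR-181a-2-3p, which differs from dre-miR-181a-2-3p in the seed (T5C and C6T), had a count of 1 in L2, 2 in S3 and 0 elsewhere. The entry aca-miR-181c-5p had a count of 1 in S3 and 0 elsewhere.

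The ratio of the arms does not depend on the scaling of the libraries. Within each library, pbv-miR-181a-5p divided by cpi-miR-181a-3p gave 0.984, 0.621 and 0.821 in large fish, against 1.29, 1.16 and 1.23 in small fish. The 3p entry was thus the more abundant in all 3 large fish libraries and the 5p entry in all 3 small fish libraries. On the log2 scale the ratio averaged -0.33 ± 0.33 in large fish, against 0.29 ± 0.08 in small fish (mean ± SD over 3 pools each), a difference of -0.62 or 0.649-fold. By the 2-sided exact permutation test p was 0.1, the smallest that 3 against 3 libraries can give. With the fish entries ccr-miR-181a and dre-miR-181a-2-3p, the ratio was 1.14, 0.699 and 0.924 in large fish, against 1.52, 1.43 and 1.45 in small fish (difference -0.70 on the log2 scale, exact permutation p = 0.1), so the groups did not overlap, but the ratio of L1 was above 1. The median over the sets of values of each arm was also taken, for sets with an overall mean of at least 10 CPM. With these medians the difference was -0.46, and every library was above 1. Leaving out each library in turn gave differences of -0.78 to -0.45, the smallest without L2.

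Taken as a share of the counts of these 2 entries, the 5p arm made up 49.6% in L1 (Wilson 95% interval 47.0% to 52.2%), 38.3% in L2 (36.2% to 40.4%) and 45.1% in L3 (42.8% to 47.4%). In small fish it made up 56.3% in S1 (54.2% to 58.3%), 53.7% in S2 (51.8% to 55.5%) and 55.2% in S3 (53.2% to 57.1%). The intervals cover counting error only. By these intervals L1 could not be told from an equal share, L2 and L3 were below it, and the small fish libraries were above it. The interval of L2 lay below those of the other large fish libraries.

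The same ratio was computed for 63 miRNA names of the table, taken without species prefix and copy number. On both arms each had an entry named with its arm, with an overall mean of at least 10 CPM and no library at 0. The entries of the 2 arms could be of different species. Some names gave the same difference, such as miR-199 and miR-199a (0.07 each) or miR-145 and miR-145a (-0.07 each). The 63 names are therefore not independent of each other. The 3p arms of miR-181b and miR-181c were below that mean and did not enter. This was a comparison added after the miR-181a values had been seen. The ratio did not overlap between the groups with large fish lower in 12.7% of these names and with large fish higher in 12.7%. By size of the difference miR-181a stood at place 18 of 63, and the median difference was -0.15 on the log2 scale. The groups lay on either side of a ratio of 1 in 1 of the 63 names, miR-181a, a count that depends on which entries stand for the arms. Only a name whose arms have near-equal values can cross 1 in this way, and the number of such names was not computed.

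**Figure D3:**
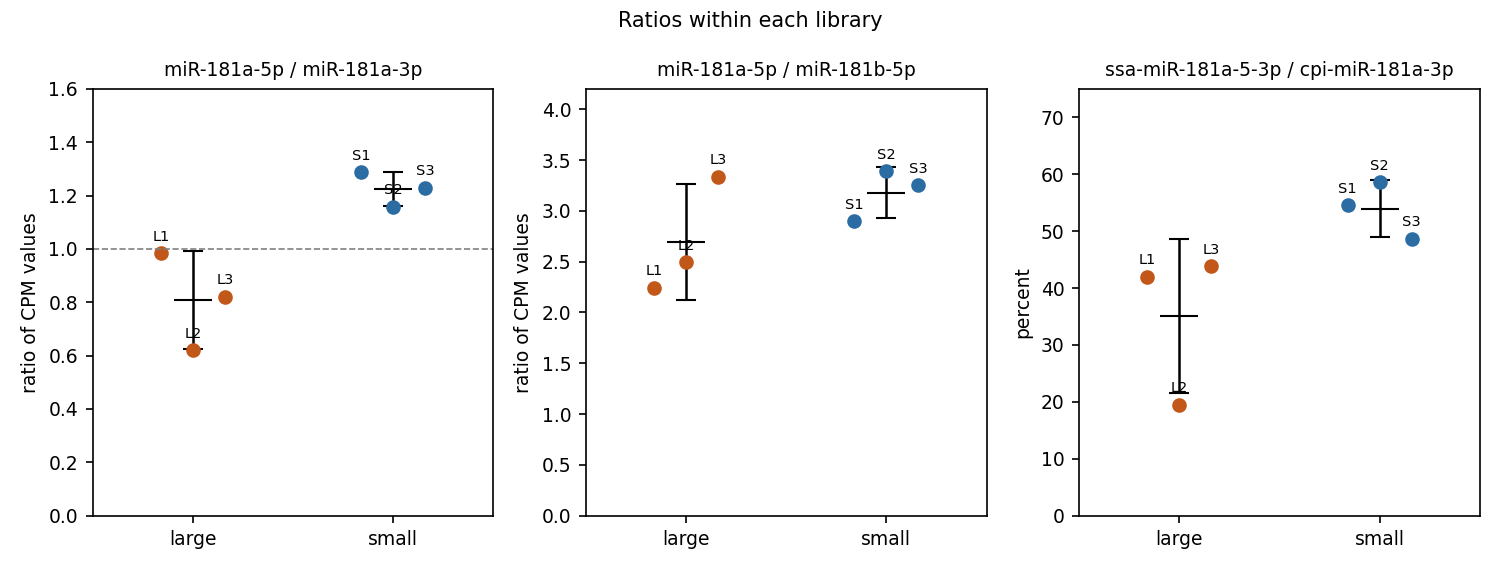
Ratio within each library of miR-181a-5p to miR-181a-3p (left, with a dashed line at 1), ratio of miR-181a-5p to miR-181b-5p (middle), and ssa-miR-181a-5-3p as a percentage of cpi-miR-181a-3p (right), with large fish left of small fish. Points are single libraries with their names, and bars are the mean and SD of the plotted values on linear axes. The arm ratio lies between 0.621 and 0.984 in large fish and between 1.16 and 1.29 in small fish, the ratio of the paralogues overlaps, and the percentage lies between 19.5% and 43.8% in large fish and between 48.7% and 58.6% in small fish.

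The ratio of the 2 clustered paralogues was also compared. Dividing pbv-miR-181a-5p by gga-miR-181b-5p gave 2.24, 2.49 and 3.33 in large fish, against 2.90, 3.39 and 3.25 in small fish. L3 lay between the small fish libraries and L1 and L2 lay below them. The difference was -0.26 on the log2 scale (2-sided exact permutation test, p = 0.3). With the fish entries ccr-miR-181a and abu-miR-181b the ratio was 12.2, 9.73 and 11.7 in large fish, against 12.9, 14.7 and 13.8 in small fish, a difference of -0.30 with no overlap (exact permutation p = 0.1). The counts of abu-miR-181b were near those of hsa-miR-181d-5p and far below those of gga-miR-181b-5p, so the 2 ratios do not have the same denominator. The choice of entry therefore decided whether the groups overlapped. Leaving out each library in turn, for the first pair of entries, gave -0.42 (without L3) to -0.14 (without L1).

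The families whose profile over the 6 libraries was most like that of each arm were not the same. The likeness was the root mean square difference of log2(CPM + 1) values, each family centred on its own mean and represented by its most abundant entry, over 107 families with a mean of at least 10 CPM. Nearest to miR-181a-5p were miR-31 (bfl-miR-31-5p, 0.177), miR-222 (dre-miR-222a-5p, 0.178) and miR-221 (ccr-miR-221, 0.214), against a median of 0.584 over all families compared. Nearest to miR-181a-3p were miR-210 (dre-miR-210-5p, 0.1003), miR-30 (pma-miR-30b, 0.124) and miR-24 (dre-miR-24b-3p, 0.126), against a median of 0.509. As an example, dre-miR-222a-5p had 378.6, 271.1 and 250.9 CPM in large fish, against 444.8, 379.9 and 444.7 CPM in small fish, while dre-miR-210-5p had 556.9, 562.7 and 532.3 CPM in large fish, against 539.6, 452.9 and 564.4 CPM in small fish.

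Because miR-181 is known from lymphocytes, it was set beside 5 families known from white blood cells, each by its most abundant entry. Of these entries 3 of 5 passed with large fish higher, where 2.82% of all entries tested did. miR-150, a family of mature lymphocytes in mammals, averaged 4586 ± 625 CPM in large fish, against 1223 ± 338 CPM in small fish (log2 fold change 1.94, adjusted p by limma 0.0138). In myeloid cells miR-223 is best known, and it averaged 2525 ± 441 CPM in large fish, against 1136 ± 128 CPM in small fish (log2 fold change 1.14, adjusted p by limma 0.0202). The family miR-142, found throughout blood cells, averaged 3464 ± 1032 CPM in large fish, against 1652 ± 269 CPM in small fish (log2 fold change 1.04, adjusted p by limma 0.0386). The call was lost in 2 of 18 alternatives for miR-150, in 3 for miR-223 and in 10 for miR-142. For miR-150 these were without L1 and without L2, where 7 and 1 of all 1807 entries passed. For miR-223 they were the same and without S3, where 26 passed. For miR-142 they included the replicate block, where 207 passed. The remaining families did not pass. Among the 18 alternatives, the most abundant entry passed in 3 for miR-146 (dre-miR-146b) and in 1 for miR-155 (efu-miR-155). miR-146, known as a brake on inflammatory signalling, averaged 14226 ± 10959 CPM in large fish, against 4732 ± 60.5 CPM in small fish (log2 fold change 1.33, adjusted p by limma 0.0949), and miR-155, known from activated lymphocytes and macrophages, averaged 242 ± 36.4 CPM in large fish, against 155 ± 67.6 CPM in small fish (log2 fold change 0.71, adjusted p by limma 0.177). The most abundant entry did not stand for all names of a family in every case. Names of a family can also repeat nearly the same values. For example, mze-miR-150 averaged 4581 CPM in large fish and 1221 CPM in small fish, near the most abundant miR-150 entry. The entries in the counts that follow are therefore not independent of each other, and their distinct sets of values were not counted. All 11 tested entries of miR-150, all 7 of miR-223 and all 18 of miR-142 were above 0. Of these, 11, 7 and 8 passed with large fish higher. All 9 tested entries of miR-155 were above 0, and 0 passed. Of 26 tested entries of miR-146, 8 were above 0 and 18 below 0. Among the 26, 0 passed with large fish higher and 3 passed with large fish lower, where 14.2% of all entries tested passed lower. Of the 3, bta-miR-146a had 32.2 CPM in large fish, against 63.4 CPM in small fish (log2 fold change -0.98, adjusted p by limma 0.0386). Whether the change of miR-181 differs from theirs was not tested.

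Of the families that mark other sources, the most abundant entries of the muscle families miR-1 (log2 fold change -2.45, limma adjusted p = 0.0293), miR-133 (-1.77, limma adjusted p = 0.0202) and miR-206 (-1.95, limma adjusted p = 0.0206) fell in large fish. Red cell miR-144 (0.07, limma adjusted p = 0.931) and miR-451 (0.48, limma adjusted p = 0.365), endothelial miR-126 (-0.02, limma adjusted p = 0.983) and liver miR-122 (-0.63, limma adjusted p = 0.310) did not pass. All of these families were well above the detection limit in both groups, and their part in the miR-181 values was not tested.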

How the data were processed

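Exosomal RNA of plasma (3 ng a library) was made into libraries that carry unique molecular identifiers. The authors kept trimmed reads of small RNA length, took out other kinds of RNA with Bowtie, identified miRNAs against miRBase and the grass carp genome, and collapsed reads sharing an identifier. The deposited values are CPM relative to all miRNA counts of a library, predicted miRNAs included, and known entries summed to 996790 to 997976 CPM. Whole counts were recovered by dividing out the step of each library (100% of values whole within a tolerance of 0.02). Names with identical counts were kept as deposited.

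Values of the 1807 entries that reached 1 CPM in 3 or more libraries were put on the log2(CPM + 1) scale and tested with limma 3.58.1 (with trend) in R 4.3.3. The pseudocount understates the change of rare entries. Recovered counts were tested with edgeR 4.0.16 and DESeq2 1.42.0 as alternatives. The procedure was tested on simulated data. Further alternatives were other pseudocounts (0.1, 10), testing all entries or those of 10 CPM and above, scaling by TMM or by quantiles, limma with no trend, a replicate block, counting identical entries once, and leaving out each library. P-values measure the spread between pools.

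Named were the most abundant entry of each letter and arm, zebrafish and common carp entries, entries that passed or whose groups did not overlap, and entries whose values went against their name. The members and lists were chosen with earlier results of these data known. Sequences were read from the deposited table. Genome positions of the hairpins were not analysed here.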

Additional observations from a re-analysis of the deposited data

How the results depend on the processing

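The count of miR-181 entries passing was 0 in 17 of the 18 alternatives to limma on log2(CPM + 1). Over the libraries left out it ranged from 0 to 1, the 1 being xtr-miR-181a-1-3p without large fish replicate 3. Some alternatives passed few entries of any family. Leaving out L1, L2 or S3 let 7, 1 and 26 of all 1807 entries pass, and edgeR's quasi-likelihood test passed 46. In these alternatives a count of 0 for miR-181 therefore says little. The sign turned, without a call on either side, in the following. For gga-miR-181b-5p the log2 fold change was 0.0094 (TMM), 0.19 (quantile), 0.0146 (both edgeR tests) and 0.0506 (DESeq2), for dre-miR-181c-5p 0.0124, 0.20, 0.0181 (quasi-likelihood), 0.0180 (exact) and 0.0540, for efu-miR-181e 0.0163, 0.16, 0.0206 (both edgeR tests) and 0.0566, and for hsa-miR-181d-5p 0.0162 (TMM), 0.16 (quantile) and 0.0385 (DESeq2). After quantile normalization it was 0.0180 for ami-miR-181b-2-3p and 0.0074 for cfa-miR-181a. With a library left out, it ranged from -0.0127 (small fish replicate 2) to 0.21 for cpi-miR-181a-3p, from -0.10 (small fish replicate 1) to 0.75 for dre-miR-181c-3p, and from -0.0155 (large fish replicate 2) to 0.47 for efu-miR-181b. The cause was not tested, beyond the shift of the median of all entries with the scaling.

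Of all entries tested, 308 passed with limma, against 46 with edgeR's quasi-likelihood test, 207 with the replicate block, and 1 to 365 with a library left out. Libraries of the same number did not deviate together (correlations -0.05, -0.06 and 0.02, where pairs of different number gave -0.11 to 0.15). With 3 pools a group, these correlations do not settle whether the numbers pair the libraries. With the block 0 miR-181 entries passed (lowest adjusted p 0.0544, dre-miR-181d-5p, limma). With 3 pools a group, the 95% intervals of miR-181a-5p and miR-181a-3p reach log2 differences of -1.05 and 0.63 in limma on log2(CPM + 1). These limits are not the smallest changes that the test could detect. In the same fit pbv-miR-142-5p did not pass at 0.80 (standard error 0.24, limma adjusted p = 0.0579), so changes beyond 0.63 could also go undetected. Entries counted in a few reads are limited by depth as well.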
